A study of Mus musculus with 2 samples.

Results

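The 10 genes described here belong to the antioxidant program of the transcription factor NRF2: Nqo1, Hmox1, Gclc, Gclm, Txnrd1, Srxn1, Slc7a11, Gsta4, Nfe2l2 and Keap1. They were taken by symbol from the 26100 genes that both count matrices list, and each symbol matched 1 row. They were gathered around Nqo1 because an earlier look at these data had found it high in Pax7-positive cells, so the group was chosen by the measured level of Nqo1 in those cells, and that level is given as a description that supports nothing. The genes were followed in 5 sets of single cells, and 9 of the 10, Nqo1 among them, were highest not in the Pax7-positive cells but in cells rich in decorin (Dcn) transcripts. The share of all genes that are highest in the Dcn-rich cells is not given here, so this count of 9 is a description only.

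The study profiled mouse embryonic fibroblasts (MEF) and induced myogenic progenitor cells (iMPCs), muscle precursor cells made from such fibroblasts with the myogenic transcription factor MyoD plus a treatment that the labels call F/R/C and do not spell out. The iMPCs were kept in medium with F/R/C and came from a stable clone. The treatment label of the MEF gives MEF medium, while their treatment protocol repeats the iMPC text, and the label is followed here. Both carry the genotype Tg:Pax7-nGFP/C57BL6;DBA2, that is, a nuclear GFP reporter of Pax7 on a mixed C57BL6 and DBA2 background. Each group is 1 droplet library of 3′ transcript ends, with 282903287 transcript molecules (UMIs) in the iMPC matrix and 118541302 in the MEF matrix. With 1 library per group there is no replicate check and no test: intervals in brackets are 95% intervals that cover counting error only, and cell state, medium, clone and library cannot be told apart between MEF and iMPCs.

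The iMPC matrix holds every barcode, so cells were barcodes with at least 8036 UMIs and at most 20% mitochondrial UMIs, which gave 9349 iMPC cells. The same mitochondrial limit gave 6043 MEF cells. Sets of iMPC cells were read from marker counts: 2180 Pax7-positive cells (at least 1 Pax7 UMI and no Myog UMI), 1724 Myog-high cells (at least 5 Myog UMIs and at most 1 Ckm UMI), 1037 Ckm-high cells (at least 5 Ckm UMIs) and 553 Dcn-high cells (at least 5 Dcn UMIs). Pax7 marks muscle stem cells, Myog encodes myogenin of committed myoblasts, Ckm encodes the creatine kinase of differentiated muscle, and decorin is a matrix proteoglycan of fibroblasts. The Dcn-high set shared 110 cells with the Pax7-positive set, and 4001 iMPC cells met none of the definitions. Median depth was 18929 UMIs in MEF cells, 18729.5 in Pax7-positive, 23857.5 in Myog-high, 42148 in Ckm-high and 18064 in Dcn-high cells, and 16 barcodes occurred among the kept cells of both libraries.

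The sets were compared on marker lists from which Pax7, Myog, Ckm and Dcn were left out. The summed level of 8 fibroblast markers was 6370 CPM, the UMIs of a gene scaled by all UMIs of the set, in MEF, 4670 in Dcn-high, 1700 in Pax7-positive, 415 in Myog-high and 242 in Ckm-high cells. The 9 satellite cell markers summed to 626 CPM in Pax7-positive, 362 in Dcn-high, 351 in Myog-high, 269 in Ckm-high and 266 in MEF cells. They set both Pax7-positive and Dcn-high cells apart from MEF, with 6 of 7 tested markers at least 2-fold higher in each set and Vcam1 lower. Tested markers had at least 10 CPM in the higher set, which Myf5 only just reached in Dcn-high cells, at 10.0 CPM. Over all genes tested, 14.8% were higher and 19.4% lower in Pax7-positive cells than in MEF. For Dcn-high cells these shares were 13% and 12.9%. Dcn-high cells were mixed, since 8 myocyte markers summed to 5232 CPM there against 1092 in Pax7-positive and 58284 in Ckm-high cells. Markers of macrophages, haem-handling cells that express Hmox1 strongly in tissues, summed to between 1.60 and 3.68 CPM in the 5 sets, with Adgre1 and C1qa at 0 UMIs in each.

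NRF2, the product of Nfe2l2, is held down by KEAP1, an adaptor that presents it to a CUL3 ubiquitin ligase for destruction. Oxidants and electrophiles modify cysteines of KEAP1, after which NRF2 accumulates, pairs with small MAF proteins and binds antioxidant response elements near its target genes. The targets make and use glutathione, keep thioredoxin and peroxiredoxins reduced, detoxify quinones and break down haem. Control acts largely on the NRF2 protein, so transcript levels of Nfe2l2 and Keap1 do not measure its activity. In muscle the program has been studied in exercise and in regeneration after injury.

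Promoter sequences were available from RefSeq (GRCm38.p6) for 7 of the 10 genes, and 5 are shown: that of Nqo1 and those in which one of the marked elements was found. Each is the first 250 bases of the RefSeq promoter window, 5′ to 3′ on the strand of the gene, ending just before the start that RefSeq annotates. That start can differ from the GENCODE gene ends given with each gene: the Srxn1 window runs past the GENCODE start and the Nfe2l2 window ends some bases before it. Capitals mark TGACNNNGC, the core of the antioxidant response element, or TGACTCA, the site that AP-1 factors and MAF-containing dimers recognise, on either strand. The Nqo1 window is chr8:107403206-107403455 (minus strand), that of Nfe2l2 chr2:75704664-75704913 (minus strand), that of Gclm chr3:122245307-122245556 (plus strand), that of Srxn1 chr2:152105274-152105523 (plus strand), and for Txnrd1 the second of its 3 windows is shown, chr10:82858956-82859205 (plus strand).
Nqo1: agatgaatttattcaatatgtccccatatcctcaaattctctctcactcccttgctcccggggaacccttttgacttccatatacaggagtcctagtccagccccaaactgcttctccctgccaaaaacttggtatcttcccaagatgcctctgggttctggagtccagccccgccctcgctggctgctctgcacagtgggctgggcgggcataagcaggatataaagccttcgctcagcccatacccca
Nfe2l2: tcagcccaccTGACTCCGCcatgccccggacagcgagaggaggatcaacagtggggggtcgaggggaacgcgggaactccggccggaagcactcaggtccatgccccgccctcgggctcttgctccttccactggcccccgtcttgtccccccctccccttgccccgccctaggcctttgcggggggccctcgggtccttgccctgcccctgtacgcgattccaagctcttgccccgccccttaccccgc
Gclm: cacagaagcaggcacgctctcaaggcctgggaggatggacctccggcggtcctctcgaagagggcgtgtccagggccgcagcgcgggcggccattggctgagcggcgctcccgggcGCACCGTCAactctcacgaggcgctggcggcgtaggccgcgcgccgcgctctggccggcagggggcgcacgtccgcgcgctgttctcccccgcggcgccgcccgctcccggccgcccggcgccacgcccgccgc
Txnrd1: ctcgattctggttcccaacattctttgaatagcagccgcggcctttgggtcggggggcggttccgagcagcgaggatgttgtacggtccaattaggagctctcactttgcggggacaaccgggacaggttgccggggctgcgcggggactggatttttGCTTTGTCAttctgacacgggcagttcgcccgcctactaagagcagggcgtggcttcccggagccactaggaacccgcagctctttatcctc
Srxn1: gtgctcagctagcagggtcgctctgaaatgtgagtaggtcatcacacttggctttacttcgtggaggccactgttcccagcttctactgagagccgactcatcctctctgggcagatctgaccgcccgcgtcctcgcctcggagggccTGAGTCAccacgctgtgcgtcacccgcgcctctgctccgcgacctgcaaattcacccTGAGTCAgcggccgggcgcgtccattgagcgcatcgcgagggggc
TGACNNNGC occurred in 3 of the 7 genes, Nfe2l2, Gclm and Txnrd1, and in 3 of their 9 windows, against 10.2% of all 32851 RefSeq mouse promoter windows of this length. Its matches were TGACTCCGC in Nfe2l2, TGACGGTGC on the opposite strand in Gclm and TGACAAAGC on the opposite strand in Txnrd1. TGACTCA occurred 2 times in Srxn1, on the opposite strand both times, against 4.46% of windows with at least 1. The Nqo1 window held neither, nor GCGTG, the core of the aryl hydrocarbon receptor element, which 28.2% of windows held. GCGTG, which is not marked above, occurred in the windows of Gclm, Srxn1 and Keap1 and in all 3 windows of Txnrd1. The windows of Nfe2l2 and Slc7a11 lacked it. No base belonged to 2 motifs. A match is a run of letters and not a measured binding site, and these windows end within 250 bases of the start, so elements farther away were not searched.

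Nfe2l2, which encodes NRF2 itself (chromosome 2, 75675513 to 75704641, GRCm38), had 90.7 CPM in MEF, 329 in Dcn-high, 187 in Pax7-positive, 71.0 in Myog-high and 52.4 in Ckm-high cells. Its level was therefore highest in Dcn-high cells and was lower at each step from Pax7-positive to Myog-high and Ckm-high cells. Pax7-positive cells exceeded MEF by 1.04 on the log2 scale (0.999987 to 1.08), and Dcn-high cells exceeded MEF by 1.86 (1.81 to 1.91). After each cell was thinned to 5000 UMIs, a UMI of Nfe2l2 was found in 56.8% of Pax7-positive cells (54.7 to 58.9) and 78.7% of Dcn-high cells (75.0 to 82.0), against 35.5% of MEF cells, 27.7% of Myog-high cells and 21.9% of Ckm-high cells.

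Keap1, the repressor of NRF2 (chromosome 9, 21229730 to 21239361), was the 1 gene of the 10 that was highest in MEF. It had 41.7 CPM in MEF, 27.5 in Dcn-high, 31.0 in Pax7-positive, 22.5 in Myog-high and 18.7 in Ckm-high cells. Pax7-positive and Dcn-high cells were each within 2-fold of MEF, at -0.43 (log2, -0.51 to -0.34) and -0.60 (-0.76 to -0.44), whereas the Ckm-high level was less than 0.5 times that of MEF. The interval of Pax7-positive over Dcn-high cells, 0.17 (0.00 to 0.35), reached 0. An annotated antisense gene, Gm16754, overlaps Keap1 exons and is not a row of the matrices.

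Nqo1, the quinone reductase that gives the group its name (chromosome 8, 107388225 to 107403206), had 11.1 CPM in MEF (10.5 to 11.7), 191 in Dcn-high (184 to 199), 60.3 in Pax7-positive (58.0 to 62.7), 9.07 in Myog-high (8.22 to 9.98) and 6.25 in Ckm-high cells (5.57 to 6.99). None of these 5 intervals overlapped. Pax7-positive cells stood above MEF, Myog-high and Ckm-high cells, and Dcn-high cells stood 3.17-fold above Pax7-positive cells. Thinned to 5000 UMIs, Nqo1 was seen in 54.8% of Dcn-high cells (50.5 to 59.0), 17.9% of Pax7-positive cells (16.3 to 19.6), 5.19% of MEF cells, 2.61% of Myog-high cells and 2.03% of Ckm-high cells. Without thinning the shares were 78.8%, 31.3%, 16.8%, 8.64% and 10.4% in the same order. Nqo1 was thus seen in a minority of Pax7-positive cells at either depth.

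**Figure D1:**
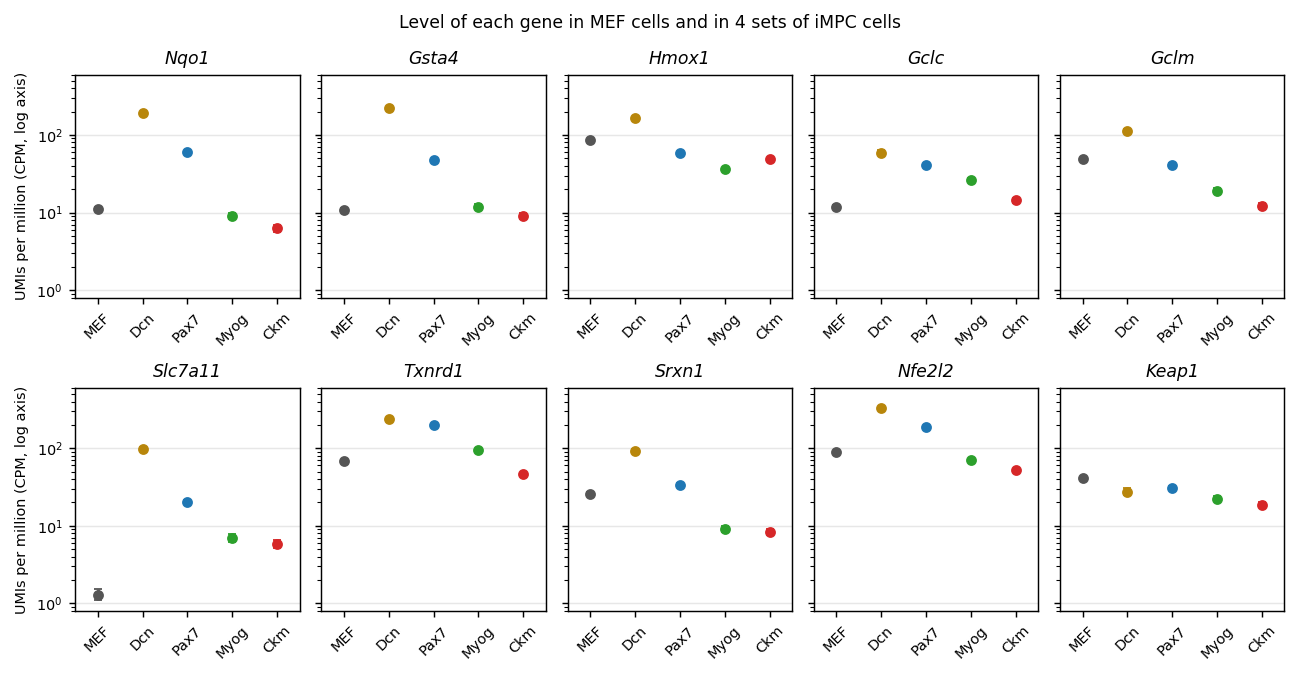
Level of each of the 10 genes in the 5 cell sets, in CPM on a log axis, with bars for 95% counting intervals. Dcn-high cells have the highest point for every gene but Keap1, as with Nqo1 at 191 CPM against 60.3 in Pax7-positive cells and 11.1 in MEF.

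Glutathione is built from cysteine, glutamate and glycine, and the step that limits it is run by a ligase with a catalytic subunit, Gclc, and a modifier subunit, Gclm. Gclc (chromosome 9, 77754535 to 77794485) had 11.9 CPM in MEF, 59.2 in Dcn-high, 40.8 in Pax7-positive, 26.2 in Myog-high and 14.3 in Ckm-high cells. Gclm (chromosome 3, 122245557 to 122270732) had 49.1 CPM in MEF, 114 in Dcn-high, 41.3 in Pax7-positive, 19.2 in Myog-high and 12.1 in Ckm-high cells. The subunits thus parted in the comparison with MEF: every iMPC set exceeded MEF in Gclc, whereas for Gclm MEF exceeded all iMPC sets except the Dcn-high cells. Pax7-positive cells over MEF gave 1.78 (1.68 to 1.88) for Gclc and -0.25 (-0.32 to -0.17) for Gclm on the log2 scale. Exons of Gclm overlap the annotated genes Gm17494 and Gm6061, the latter on the same strand, and neither is a row of the matrices.

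Slc7a11, the cystine importer that supplies cysteine for glutathione (chromosome 3, 49892526 to 50443614), was close to absent in MEF. It had 1.30 CPM there, from 154 UMIs, 99.1 in Dcn-high, 20.4 in Pax7-positive, 7.01 in Myog-high and 5.90 in Ckm-high cells. Its log2 ratio over MEF was 3.96 (3.72 to 4.22) in Pax7-positive cells and 6.25 (6.004 to 6.499) in Dcn-high cells. In thinned cells it was seen in 0.556% of MEF cells, 5.92% of Pax7-positive cells and 25.1% of Dcn-high cells. Myog-high and Ckm-high cells differed little, with a log2 ratio of Ckm-high over Myog-high of -0.25 (-0.48 to -0.02).

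Gsta4, a glutathione transferase that conjugates products of lipid peroxidation (chromosome 9, 78182774 to 78209349), had the profile most like that of Nqo1 among the other 9 genes. Its levels were 10.8 CPM in MEF, 223 in Dcn-high, 47.4 in Pax7-positive, 11.9 in Myog-high and 9.13 in Ckm-high cells. The intervals of MEF (10.3 to 11.5) and Myog-high cells (10.95 to 12.97) overlapped, and those of the other sets did not overlap with each other or, for Ckm-high cells (8.30 to 10.0), with MEF. Gsta4 was concentrated in few cells: the tenth of Pax7-positive cells with most Gsta4 held 94.8% of its UMIs, and single cells reached 63 UMIs. The corresponding share was 40.0% for Keap1, which had fewer UMIs in that set, 1366 against 2088. Slc7a11 with 90.3% and Nqo1 with 69.3% were concentrated too, whereas Nfe2l2 with 29.4% and Txnrd1 with 30.6% were spread over most cells.

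Txnrd1, the cytosolic thioredoxin reductase (chromosome 10, 82833951 to 82897712), had 68.5 CPM in MEF, 237 in Dcn-high, 199 in Pax7-positive, 95.5 in Myog-high and 46.4 in Ckm-high cells. It came closest to parity between Pax7-positive and Dcn-high cells among the 9 genes highest in the Dcn-high set, at -0.26 (log2, -0.32 to -0.20). Srxn1, which encodes sulfiredoxin and repairs over-oxidised peroxiredoxins (chromosome 2, 152105516 to 152111376), had 26.0 CPM in MEF, 91.8 in Dcn-high, 33.5 in Pax7-positive, 9.18 in Myog-high and 8.30 in Ckm-high cells. Pax7-positive cells thus exceeded MEF by 1.54 (1.49 to 1.58) for Txnrd1 and by 0.37 (0.28 to 0.46) for Srxn1. For Srxn1 the Pax7-positive excess over MEF shrank to 0.02 when cells with any Dcn UMI were left out, and turned to -0.01 when at least 3 Pax7 UMIs were asked for. Ckm-high and Myog-high cells could not be told apart by counting for Srxn1, at -0.14 (-0.34 to 0.06).

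Hmox1, the inducible haem oxygenase (chromosome 8, 75093621 to 75100589), followed another order. It had 85.3 CPM in MEF, 163 in Dcn-high, 57.9 in Pax7-positive, 36.0 in Myog-high and 48.7 in Ckm-high cells. MEF thus exceeded Pax7-positive cells, with a log2 ratio of Pax7-positive over MEF of -0.56 (-0.62 to -0.50), and Ckm-high cells exceeded Myog-high cells by 0.44 (0.35 to 0.53). Of the 10 genes Hmox1 was the only one higher in Ckm-high than in Myog-high cells, except that Keap1 turned to 0.06 with thinned cells. Its ratio of Pax7-positive over Ckm-high cells was 0.25, and -0.07 without the Dcn-containing cells.

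**Figure D2:**
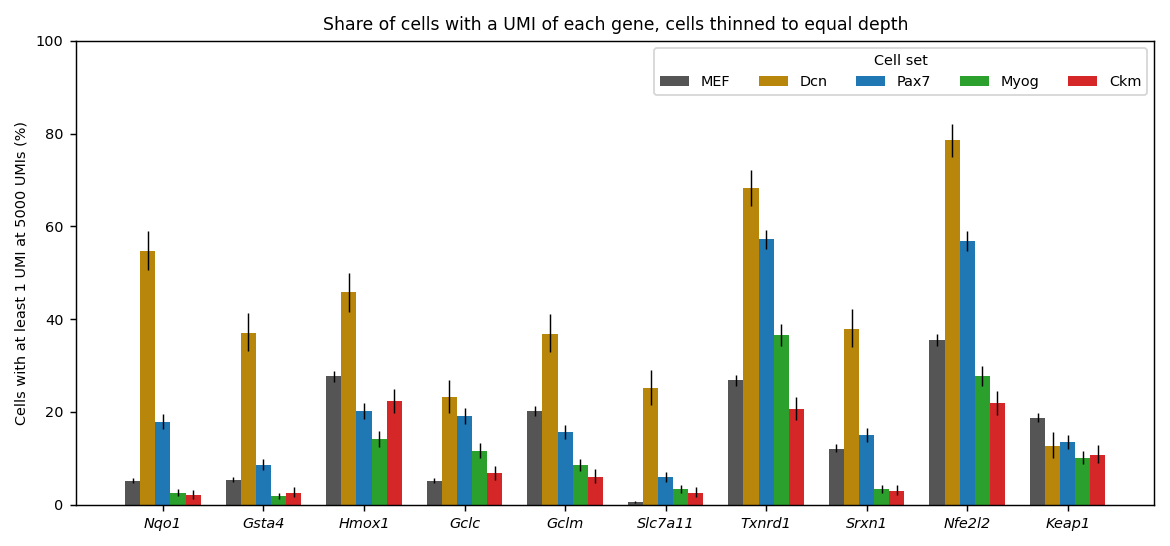
Share of cells with at least 1 UMI of each gene after each cell was thinned to 5000 UMIs, with 95% exact binomial intervals and the iMPC sets named by their gene. The Dcn-high bar is the tallest for 9 genes, for example 78.7% for Nfe2l2, and the MEF bar of 18.8% is the tallest for Keap1.

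Droplets that hold no cell still contain free RNA, and the 10 genes were detectable there. In the 48846 iMPC barcodes with 200 to 600 UMIs they summed to 244 CPM, against 535 CPM in iMPC cells. Such RNA, at 2.06% of the UMIs of a cell, would give between 0.0306% (Slc7a11) and 0.716% (Txnrd1) of thinned cells a UMI. With the RNA of barcodes of 1 to 100 UMIs these values were 0.0894% and 0.962%. For Nqo1 the 2 values were 0.182% and 0.283%, against 2.03% of Ckm-high cells, the lowest share of Nqo1 in the 5 sets. The barcodes of 200 to 600 UMIs had a median of 14.9% mitochondrial UMIs, against 3.71% in iMPC cells. Whether they hold free RNA alone was not tested. No cell set here is known to lack these genes altogether, so no set served as a blank.

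Ratios between sets were counted over the 10 genes, calling a gene different at 2-fold or more with at least 10 CPM in the higher set. Between Pax7-positive cells and MEF, 6 of the 10 were higher in Pax7-positive cells, against 14.8% of the 8557 genes tested, and none was lower, against 19.4%. The 6 were Nqo1, Gclc, Txnrd1, Slc7a11, Gsta4 and Nfe2l2, and without Nqo1, the gene the choice rested on, 5 of 9 were higher. The 2-fold limit passed between Nfe2l2 at 1.04 and Srxn1 at 0.37. Nfe2l2 was no longer called without Dcn-containing cells, at 0.88, or with at least 3 Pax7 UMIs, at 0.81. Over all iMPC cells against MEF, which mixes the sets, 4 of the 10 were higher, against 14.8% of 8605 genes tested, and none was lower, against 21.5%. For Pax7-positive cells the median log2 ratio of the 10 genes was 1.29, that of the 9 without Nqo1 was 1.04, and that of all genes tested was -0.09. The mitochondrial share of UMIs was 5.95% in MEF and 3.58% in Pax7-positive cells, the ribosomal protein share was 21.9% and 33.2%, and the summed level of 10 immediate early and stress genes was 314 and 1162 CPM. Their part in the ratios was not tested, apart from the total taken without mitochondrial and ribosomal protein genes, under which no count of the 10 genes moved by more than 1.5 times.

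Between Dcn-high cells and MEF, 8 of the 10 were higher in Dcn-high cells, against 13% of 8525 genes tested, and none was lower, against 12.9%. Only Hmox1, at 0.94 (0.865 to 1.005), and Keap1 fell outside the call. The median was 1.84, with -0.10 over all genes tested. These cells and MEF both express Dcn, and within MEF itself Nqo1 was 11.7 CPM in cells with fewer than 5 Dcn UMIs and 10.2 in cells with 5 or more. A high Dcn count therefore went with a high Nqo1 level in the iMPC library and not in the MEF library, and the difference was not tested. The immediate early and stress genes summed to 1666 CPM in Dcn-high cells, and all 10 of them passed the same limit over MEF.

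The choice of Nqo1 rested on its level in Pax7-positive cells, so every contrast of that set carries the choice. Between Pax7-positive and Myog-high cells 7 of the 10 genes were higher in Pax7-positive cells, with 11.5% of 7932 genes called in that direction. None was lower, with 7.02% called. Nqo1 is part of this count, which was 6 of 9 without it and from which nothing is read. The count over the 10 was 4 when Pax7-positive cells with any Dcn UMI were left out, an alternative added after the values had been seen, and Nqo1 then had a log2 ratio of 2.10 in place of 2.73. It was also 4 with at least 3 Pax7 UMIs per cell, likewise added later. Against Ckm-high cells 8 of the 10 were higher in Pax7-positive cells, with 30.2% of 8115 genes called, and none was lower, with 12.2% called. Without Nqo1 it was 7 of 9. Ckm-high cells were deeper than Pax7-positive cells, 42148 against 18729.5 median UMIs per cell.

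Between the Pax7-positive and Dcn-high sets none of the 10 was higher in Pax7-positive cells, with 6.77% of 8196 genes called, and 6 were lower, with 11% called. The 6 were Slc7a11 at -2.28 (-2.41 to -2.16), Gsta4 at -2.23 (-2.32 to -2.15), Nqo1 at -1.67 (-1.75 to -1.58), Hmox1, Gclm and Srxn1. Nfe2l2, Gclc and Txnrd1 were lower by less than 2-fold. The members' median was -1.46 and that of all genes tested was -0.01. The 110 cells common to both sets lie on both sides of this ratio. Leaving out cells of more than 1 set, or the highest 5% of doublet scores, moved no count of the 10 genes by more than 1.5 times.

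Between Ckm-high and Myog-high cells 7 of the 10 genes reached 10 CPM. None was higher in Ckm-high cells, with 6.53% of 7332 genes called, and 1, Txnrd1, was lower, with 13.8% called. Its ratio of -1.04 (-1.11 to -0.97) lay at the limit, and it was not called with cells thinned to 5000 UMIs or with scaling by the median gene ratio. The 10 genes together, Nqo1 included, summed to 718 CPM in Pax7-positive, 308 in Myog-high and 222 in Ckm-high cells. The sum was 396 CPM in MEF and 1536 CPM in Dcn-high cells. Abundant genes weigh most in it, such as Txnrd1 with 199, 95.5 and 46.4 CPM in Pax7-positive, Myog-high and Ckm-high cells. Nfe2l2 had 187, 71.0 and 52.4 CPM in the same order. Nothing is read from the steps of the sum.

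**Figure D3:**
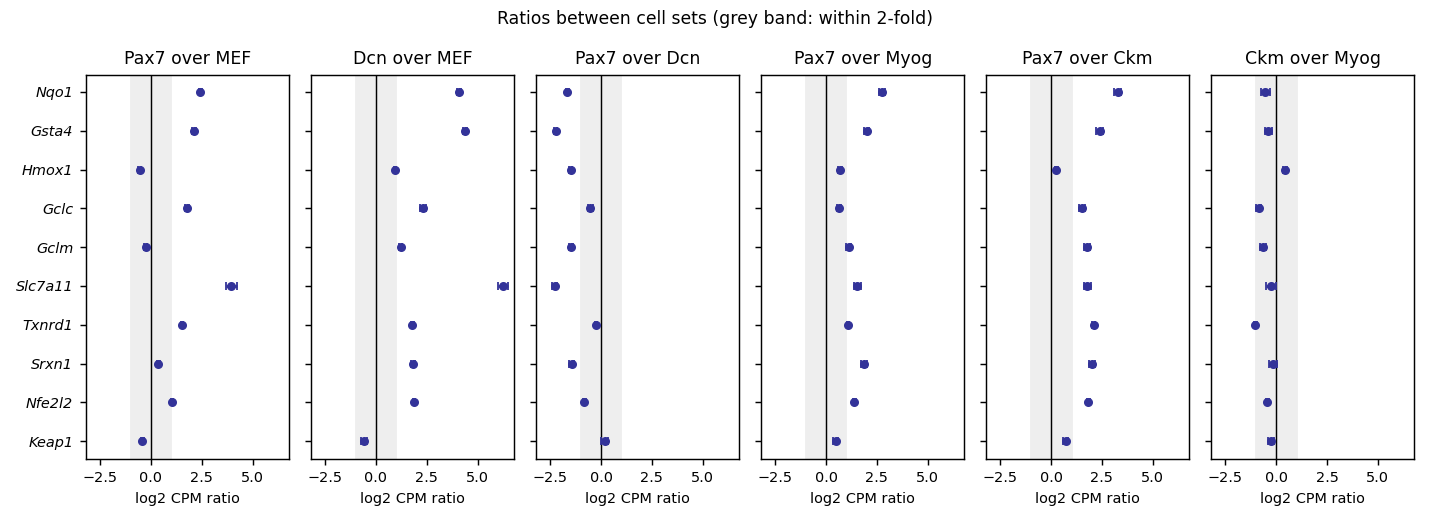
Log2 ratios of the 10 genes between cell sets, 1 panel per comparison, with 95% counting intervals and a grey band for ratios within 2-fold. Slc7a11 has the largest ratio of Dcn-high over MEF, 6.25, and in the panel of Pax7-positive over Dcn-high cells every gene but Keap1 lies below 0.

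The Pax7-positive set was then split by counts of other genes, with the splits chosen after the first values were known. By Dcn, Nqo1 was 39.0 CPM (37.0 to 41.0) in the 1931 Pax7-positive cells with no Dcn UMI, 193 (177 to 210) in the 139 with 1 to 4, and 256 (236 to 277) in the 110 with 5 or more. In the 359 cells with at least 5 Dcn UMIs and no Pax7 UMI it was 175 (166 to 185). So Nqo1 was high in Dcn-high cells with and without Pax7, and the 1931 cells without Dcn still exceeded MEF, with a log2 ratio of 1.81. Gsta4 went from 26.6 to 205 and 203 CPM over the same 3 groups, Slc7a11 from 10.8 to 51.4 and 143 CPM, and Nfe2l2 from 167 to 295 and 382 CPM. Keap1 stayed at 31.1, 28.8 and 32.4 CPM. Median depth was alike in the 3 groups, 18779, 18534 and 18063.5 UMIs per cell.

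More Pax7 did not go with more Nqo1. Among iMPC cells with no Myog UMI, Nqo1 was 101 CPM in 1420 cells with no Pax7 UMI, 74.5 in 889 with 1, 70.8 in 560 with 2 and 38.9 in 731 with 3 or more. With Dcn-containing cells left out the order was the same, 63.5, 44.8, 42.8 and 31.0 CPM. In both series the intervals at 1 and 2 UMIs overlapped. Median depth rose from 15974.5 to 20670 UMIs per cell over the 4 groups. The gene therefore was above its MEF level in cells with no detected Pax7 or Myog as well as in Pax7-positive cells. Myog went the other way from Nqo1: among cells with Pax7, Nqo1 was 60.3 CPM with no Myog UMI, 45.1 with 1 to 4 and 16.0 with 5 or more. Median depth rose alongside, from 18729.5 to 20977 and 31848.5 UMIs per cell, and its part was not tested.

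The myogenic factors Myf5, listed here among the satellite cell markers, and Myod1, listed among the committed myoblast markers, also split the Pax7-positive cells. Nqo1 was 161 CPM in 511 cells with a UMI of neither, 59.5 in 460 with Myod1 alone, 37.7 in 506 with Myf5 alone and 20.6 in 703 with both. The cells with neither were shallower, with a median of 15999 UMIs against 21170 in the cells with both. In 4 depth classes of 546, 544, 545 and 545 cells Nqo1 was 105, 67.0, 47.7 and 47.7 CPM from the shallowest to the deepest, so the level and the depth of a cell were related in this set, and how far depth enters the split by Myf5 and Myod1 was not tested.

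Dividing cells were compared with the rest by a UMI of Mki67 or Top2a, genes of proliferating cells. In the Pax7-positive set Nqo1 was 34.2 CPM in 1383 cells with such a UMI and 125 in 797 with neither, a log2 ratio of -1.87 (-1.98 to -1.76). Median depth was 21419 and 14832 UMIs per cell in these 2 groups, and its part in the ratios was not tested. Gsta4 at -2.17 (-2.30 to -2.04), Slc7a11 at -1.96, Hmox1 at -1.68 and Srxn1 at -1.29 were also lower in the cycling cells by more than 2-fold. Nfe2l2 at -0.90 and Gclm at -0.89 were lower by less than 2-fold, and Gclc at -0.21 and Txnrd1 at -0.29 by little. Keap1 was higher, at 0.28 (0.10 to 0.46). Without Dcn-containing cells Nqo1 still had -1.76 (-1.91 to -1.61), while Gclc had 0.03 (-0.13 to 0.21). In MEF the ratio of Nqo1 was 0.35 (0.16 to 0.54), from 13.5 CPM in 945 cycling cells and 10.6 in 5098 others.

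**Figure D4:**
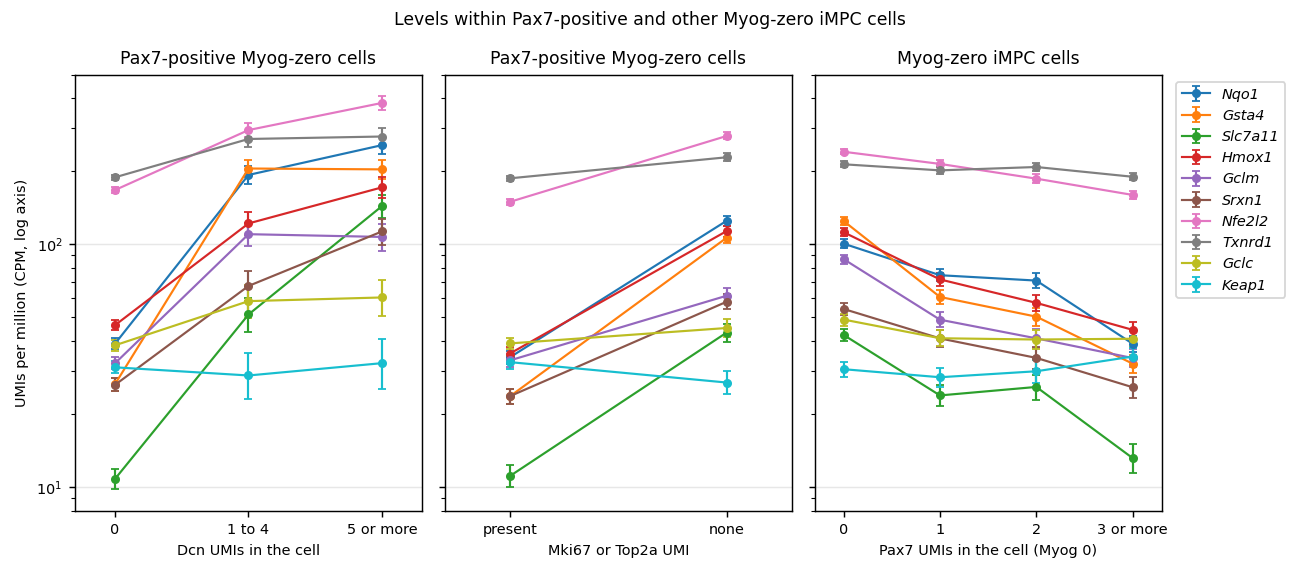
Level in CPM, on a shared log axis, of the 10 genes within groups of iMPC cells split by Dcn, Pax7 or Mki67 and Top2a UMIs, with 95% counting intervals. Nqo1 goes from 39.0 to 256 CPM with more Dcn UMIs and from 101 to 38.9 CPM with more Pax7 UMIs, and Keap1 stays nearly level.

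The other genes were next compared between cells with and without an Nqo1 UMI, at a fixed depth of 5000 UMIs per cell. In the Pax7-positive set, 391 cells had one and 1789 had none. Gsta4 was 228 CPM in the cells with Nqo1 and 13.2 in those without, a log2 ratio of 4.11 (3.81 to 4.41). Slc7a11 had a ratio of 2.93 (2.52 to 3.36), Gclm 2.30 (2.04 to 2.57), Hmox1 2.19 (1.98 to 2.40) and Srxn1 2.06 (1.77 to 2.35), so these genes were higher in the cells that also held Nqo1. Nfe2l2 at 1.12, Gclc at 1.09 and Txnrd1 at 0.97 shared this to a lesser degree, and Keap1 did not, at -0.03 (-0.47 to 0.39). The median over 9440 genes was 0.00.

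Cells with Nqo1 in the Pax7-positive set also differed in other lists. Unlike the marker sums compared between the sets, these marker lists were whole, with Pax7, Myog, Ckm and Dcn left in. The summed fibroblast markers were 3317 CPM with Nqo1 and 1506 without, the cell cycle genes 369 and 893, the committed myoblast markers 162 and 363, and the satellite cell markers 643 and 778. Genes of the aryl hydrocarbon receptor pathway, a sensor of foreign compounds that also acts on Nqo1, summed to 383 CPM with Nqo1 and 154 without. The part of these cell differences in the ratios above was not tested.

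Within the Dcn-high set the same comparison, 303 cells with Nqo1 and 250 without, gave 1.62 (1.36 to 1.89) for Gsta4, 1.55 for Slc7a11, 1.54 for Gclm and 1.33 for Gclc. There the fibroblast markers, with Dcn that defines the set among them, were 5961 CPM with Nqo1 and 6725 without. The muscle lists, which here held Ckm and Myog, were lower in the cells with Nqo1. Myocyte markers stood at 1589 against 3897 CPM, committed myoblast markers at 169 against 398, and smooth muscle and pericyte markers at 524 against 1089. Their part in these ratios was not tested. Within MEF, 299 cells with Nqo1 and 5460 without gave 1.09 (0.55 to 1.59) for Gsta4 and 0.41 (0.18 to 0.64) for Hmox1, and the intervals of the other 7 genes included 0. The difference between the sets in these ratios was not tested, and the MEF values rest on few UMIs, for example 3 of Slc7a11 in the cells with Nqo1.

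**Figure D5:**
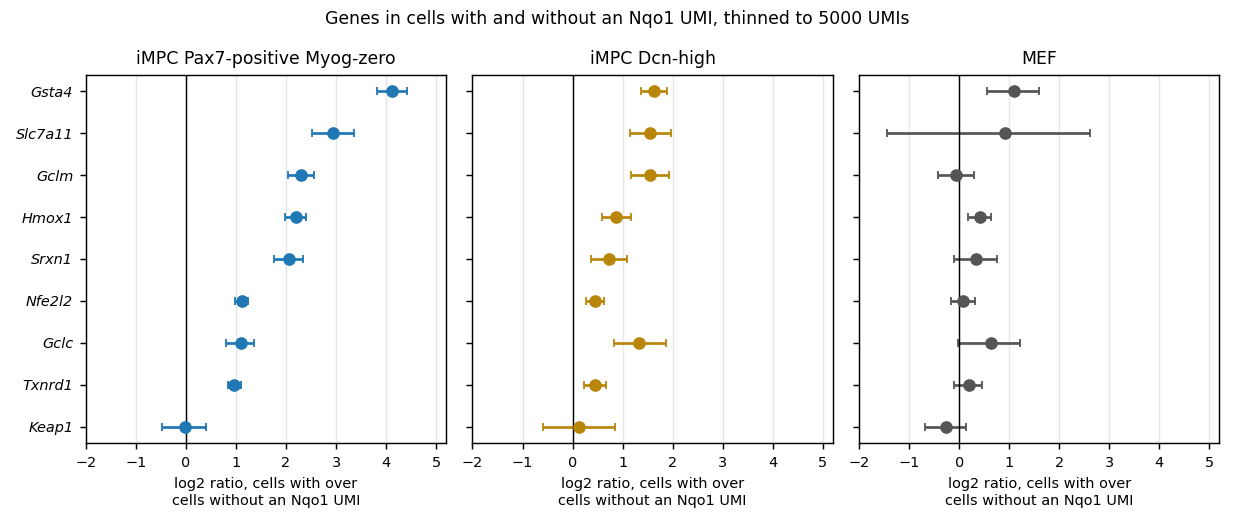
Log2 ratio of each of the other 9 genes in cells with over cells without an Nqo1 UMI, at 5000 UMIs per cell, in MEF, Pax7-positive and Dcn-high cells, with 95% counting intervals. Gsta4 lies highest in the Pax7-positive panel, at 4.11, and the interval of Keap1 includes 0 in each panel.

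Over the 5 sets, the genes whose profile lay nearest to that of Nqo1 were Spon2 (distance 0.42), Fosl1 (0.62), Spp1 (0.63), Gsta4 (0.66) and Kcne4 (0.68), among 3930 genes with at least 50 CPM in a set. The distance is Euclidean, between log2(CPM + 1) profiles centred on their own mean, and the 5 points share 2 libraries. Spon2, Fosl1, Gsta4 and Kcne4 reached 50 CPM in the Dcn-high set alone, the set in which Nqo1 was also highest. The level minimum thus favours such profiles, and nothing is read from the likeness. Fosl1 encodes the AP-1 subunit FRA1, and Spp1 encodes osteopontin, a secreted phosphoprotein. Fosl1 had 9.82 CPM in MEF, 36.4 in Pax7-positive and 106 in Dcn-high cells. Among the other members Srxn1 ranked 56, Slc7a11 71, Nfe2l2 80, Txnrd1 132, Gclm 142, Gclc 177 and Hmox1 336, while Keap1 was below 50 CPM in every set and was not ranked.

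The wider antioxidant network was read from lists of named genes. Of 72 further genes in 7 lists (partners of NRF2, glutathione, thioredoxin, NADPH supply, haem and iron, detoxification, and other antioxidant enzymes), 59 were tested between Pax7-positive cells and MEF, where 8 were higher and 14 lower, with a median of -0.19, where 14.8% and 19.4% of all genes were called. Against Myog-high cells 16 of 57 were higher in Pax7-positive cells and none was lower, where 11.5% and 7.02% of all genes were called. Against Ckm-high cells 24 of 60 were higher and 3 lower, where 30.2% and 12.2% were called. Against Dcn-high cells none of 62 was higher and 16 were lower, where 6.77% and 11% were called. Dcn-high cells over MEF gave 18 higher and 6 lower of 63, where 13% and 12.9% were called. The median there was 0.21, in the same direction as the 10 genes.

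Genes of this network with much more transcript in MEF than in Pax7-positive cells included Gsto1, a glutathione transferase of the omega class, at 1274 against 28.1 CPM, Gpx1, a glutathione peroxidase, at 881 against 174, and Ftl1, the light chain of the iron store ferritin, at 10544 against 2511. In the other direction stood Osgin1, a stress-responsive NRF2 target, at 0.754 CPM in MEF and 24.7 in Pax7-positive cells, and Slc1a5, an amino acid transporter, at 6.31 and 25.8. Among partners of NRF2, Mafk differed by more than 2-fold, at 11.4 CPM in MEF and 3.04 in Pax7-positive cells, and Bach1, the repressor that competes at the same elements, had 28.2 and 53.3. Blvrb, which acts after haem oxygenase on biliverdin, had 68.7 CPM in MEF, 169 in Pax7-positive and 363 in Dcn-high cells.

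Over all genes tested, 14.8% were called higher and 19.4% lower in Pax7-positive cells than in MEF, the shares beside each MEF count of the lists below. NADPH is the reductant that Nqo1 and Txnrd1 consume. Of 7 genes listed for NADPH supply and the pentose phosphate pathway around it, none was higher in Pax7-positive cells than in MEF. Lower were 2, Idh1 at -1.73 and Me1 at -1.25 on the log2 scale. The same 7 gave 5 higher and none lower against Ckm-high cells, where 30.2% and 12.2% of all genes were called. The largest ratios were Tkt at 2.81, G6pdx at 2.77 and Me1 at 1.97. Of 9 thioredoxin and peroxiredoxin genes, 1 was higher in Pax7-positive cells than in MEF, Prdx4 at 1.10, and none was lower. Of 9 tested genes of the ATF4 response, which also acts on Slc7a11, 1 was higher in Pax7-positive cells than in MEF and 3 were lower, where 14.8% and 19.4% of all genes were called. Of 4 tested genes of the aryl hydrocarbon receptor pathway 2 were higher, Ahr and Tiparp, and none was lower. Ahr had 0.373 CPM in MEF, 40.1 in Pax7-positive and 51.5 in Dcn-high cells.

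At the limits of the set definitions, Nqo1 was 15.2 CPM in 118 cells with 4 Myog UMIs and 25.8 in 77 cells with 5, with at most 1 Ckm UMI in each case. It was 5.40 CPM in 115 cells with 4 Ckm UMIs and 6.38 in 105 cells with 5. It was 207 CPM in 54 cells with 4 Dcn UMIs and 136 in 29 cells with 5, so the cells just outside the Dcn-high set were no lower in Nqo1 than those just inside it. The 4001 iMPC cells in none of the sets had 45.2 CPM of Nqo1, between the Pax7-positive and the Myog-high level.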

How the data were processed

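Single cells of both groups were profiled with droplet 3′ sequencing. The authors deposited UMI counts per gene and barcode; Cell Ranger 4.0, Seurat 3.2.3 and GRCm38.p6 are named, with no role, per the submitters' processing notes. The iMPC matrix listed 6794880 barcodes, and the MEF matrix 6113 with at least 503 UMIs, so it was already filtered. The 24 genes listed for MEF alone, 0.209% of its UMIs, were left out.

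The 10 genes, the gene lists and the cell sets were chosen with earlier results of these data known, and the motifs after the promoter letters had been seen. The iMPC minimum of 8036 UMIs was 10% of the 99th percentile of the 10000 largest barcodes. Raw counts were summed over the cells of a set and scaled by the total of the set (CPM). Sums carry exact Poisson intervals, ratios exact conditional intervals and shares exact binomial (Clopper-Pearson) intervals, at 95%. Thinning to 5000 UMIs left out 284 MEF cells and no iMPC cells. Named genes are the 10 members, up to 3 genes per list with the largest ratio in a comparison and at least 10 CPM, and the 5 nearest Nqo1; the rest of the named genes, and the splits by other genes, were chosen after their values were seen. No doublets were removed, except in an alternative that left out the highest 5% of Scrublet scores. The ratio and interval code was tested on simulated data. Positions come from GENCODE M21. Python 3.11.15, numpy 2.4.6, scipy 1.17.1, pandas 2.3.3 and scanpy 1.11.5 were used. The alternatives changed the scaling, the fold, the level minimum, the cell limits, depth, free RNA, doublets and shared cells.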

Additional observations from a re-analysis of the deposited data

Results flagged for a closer look

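For 5 of the 10 genes, cells with a UMI of Mki67 or Top2a differed from the rest in opposite directions in MEF and in the Pax7-positive set. The log2 ratio of cycling over other cells was 0.35 in MEF and -1.87 in the Pax7-positive set for Nqo1, 0.28 and -0.21 for Gclc, 0.53 and -0.89 for Gclm, 0.42 and -0.29 for Txnrd1, and 0.18 and -1.29 for Srxn1. The intervals of these 10 values exclude 0 for counting error, but each library is a single sample and the difference between the libraries was not tested. Cycling cells of the Pax7-positive set were also deeper than the rest, and the part of depth was not tested in either library. For Gclc the direction was not kept without Dcn-containing cells, at 0.03 (-0.13 to 0.21).

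The 10 genes were also present in iMPC barcodes outside the cells. Summed, they were 371 CPM in barcodes of 1 to 100 UMIs, 244 CPM in barcodes of 200 to 600 UMIs and 195 CPM in the 191 barcodes with over 20% mitochondrial UMIs, against 535 CPM in iMPC cells. All 3 values are above the limit that a count of 0 allows.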

How the results depend on the processing

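No paired analysis was possible because each group holds 1 library. Of 164 recomputed counts of members, 158 were within 1.5 times the reported count. Of 680 recomputed log2 ratios 435 stayed within their counting interval, and of 200 recomputed shares 99 did. The number of genes lower in Ckm-high than in Myog-high cells went from 1 to 0 with scaling by the median gene ratio and with cells thinned to 5000 UMIs, and to 3 at 1.5-fold. The number lower in Dcn-high cells than in MEF went from 0 to 1 at 1.5-fold. The number higher in Pax7-positive than in Myog-high cells went from 7 to 4 without Dcn-containing cells and to 4 with at least 3 Pax7 UMIs, both alternatives chosen after seeing the data. The cause was not tested in any of these cases, apart from the lower fold itself. Over all alternatives the number higher than MEF was 5 to 6 in Pax7-positive cells and 8 to 9 in Dcn-high cells, and 9 genes had their highest share in Dcn-high cells throughout. This number of 9 has no share over all genes beside it. Signs changed in 3 ratios, each within 2-fold: Keap1 in Ckm-high over Myog-high cells (-0.26, and 0.06 with thinned cells), Hmox1 in Pax7-positive over Ckm-high cells (0.25, -0.07 without Dcn-containing cells and -0.13 with at least 3 Pax7 UMIs) and Srxn1 in Pax7-positive cells over MEF (0.37, and -0.01 with at least 3 Pax7 UMIs). Depth limits Slc7a11 in MEF most, with 154 UMIs.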
